A study of Macaca mulatta with 24 samples.

Results

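Oxidative phosphorylation (OXPHOS) genes were followed in colon of rhesus macaques after total-body irradiation (TBI). A gene was taken as a member by its symbol, that is, if the symbol began with NDUFA, NDUFB, NDUFC, NDUFS, NDUFV, UQCR, SDH followed by A to D, COX followed by a number from 4 to 8, or ATP5. The arrays held 67 such genes among 16094 gene symbols, on 126 probes, and each gene was represented by its brightest probe. Of these, 60 encode subunits of the 5 complexes, with 24 genes in complex I, 3 in complex II, 7 in complex III, 14 in complex IV and 12 in complex V. NDUFA4 and NDUFA4L2 were counted with complex IV, to which the NDUFA4 protein is now assigned. The other members were 5 complex I assembly factors (NDUFAF2 to NDUFAF6) and 2 genes, COX4NB and ATP5SL, that share the prefix without being subunits. Symbols are those of the array design, in which COX7AH is the gene now called COX7A1 and UQCR the gene now called UQCR11.

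Colon RNA from 24 animals was hybridised without pooling, 1 array per animal. The animals were 4 unirradiated controls, labelled day 4 with a dose of 0, and 6 irradiated groups that were exposed to TBI at 6.7 or at 7.4 Gy and sampled after 4, 7 or 12 days, with 4 animals per dose on days 4 and 7 and 2 per dose on day 12. The day of each sample was taken from its own label; the treatment protocol in the labels names a later day as the last time point. Per the study's methods the animals were male young adults and the irradiated ones received a single dose of gamma rays from a cobalt source. Tissue pieces were bulk colon, so fewer cells of a type and less RNA per cell cannot be told apart.

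The mitochondrial respiratory chain passes electrons from NADH through complex I, or from succinate through complex II, to ubiquinone, then through complex III and cytochrome c to complex IV, which reduces oxygen. Complexes I, III and IV pump protons across the inner membrane, and complex V, the ATP synthase, uses the gradient to make ATP. Most subunits are encoded in the nucleus, while a core set is encoded by mitochondrial DNA, so that every complex but II is assembled from the products of both genomes. In the colon, mature absorptive cells at the surface are rich in mitochondria and oxidise butyrate made by the gut bacteria.

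Values are log2 signals relative to the 75th percentile of each array. Between 66.6% and 84.8% of spots were well above background on an array. Among the 67 members, 46 were above background on all 24 arrays and 65 on 20 or more. NDUFA5 was above background on 1 array and was not tested, which left 66 members, 23 of them in complex I. COX4I2 was above background on 7 arrays. Outlier spots removed 32 of 1608 member values. A gene was called when its adjusted p in the limma fit was under 0.05, adjusted over all 38220 probes tested, and a separate count asked for at least a 2-fold change as well.

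The arrays lay on 6 slides of 4 positions, scanned on 2 days, and position was tied to group. Position 1 held the controls and 2 of the 6.7 Gy day 4 animals, position 2 the rest of the day 4 animals, and positions 3 and 4 all animals of days 7 and 12. Day 7 or day 12 and array position therefore cannot be told apart in any comparison with control or with day 4. Among markers of other cell types, those of absorptive colonocytes moved with the day 4 groups: 6 of 10 were lower at 6.7 Gy and 8 of 10 at 7.4 Gy, with medians of -2.24 and -3.27 on the log2 scale.

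On day 4 after 7.4 Gy the nuclear-encoded subunits stood below control. Their mean over 59 subunits was 0.25 lower on the log2 scale, with a mean log2 value of 4.20 ± 0.04 (SD, n = 4) in the controls and 3.95 ± 0.06 (SD, n = 4) after irradiation, and the 4 irradiated animals, between 3.90 and 4.03, lay below the 4 controls, between 4.16 and 4.27. After 6.7 Gy the mean was 4.10 ± 0.16 (SD, n = 4), with animals from 3.90 to 4.23 that overlapped the controls. On day 7 the means were above control, at 4.34 ± 0.175 after 6.7 Gy and 4.31 ± 0.095 after 7.4 Gy (SD, n = 4 each), and on day 12 they were 4.25 ± 0.018 and 4.16 ± 0.0041 (SD, n = 2 each), close to the control level. These means over members take in the genes with a usable spot on each array, are descriptions and were not tested.

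**Figure D1:**
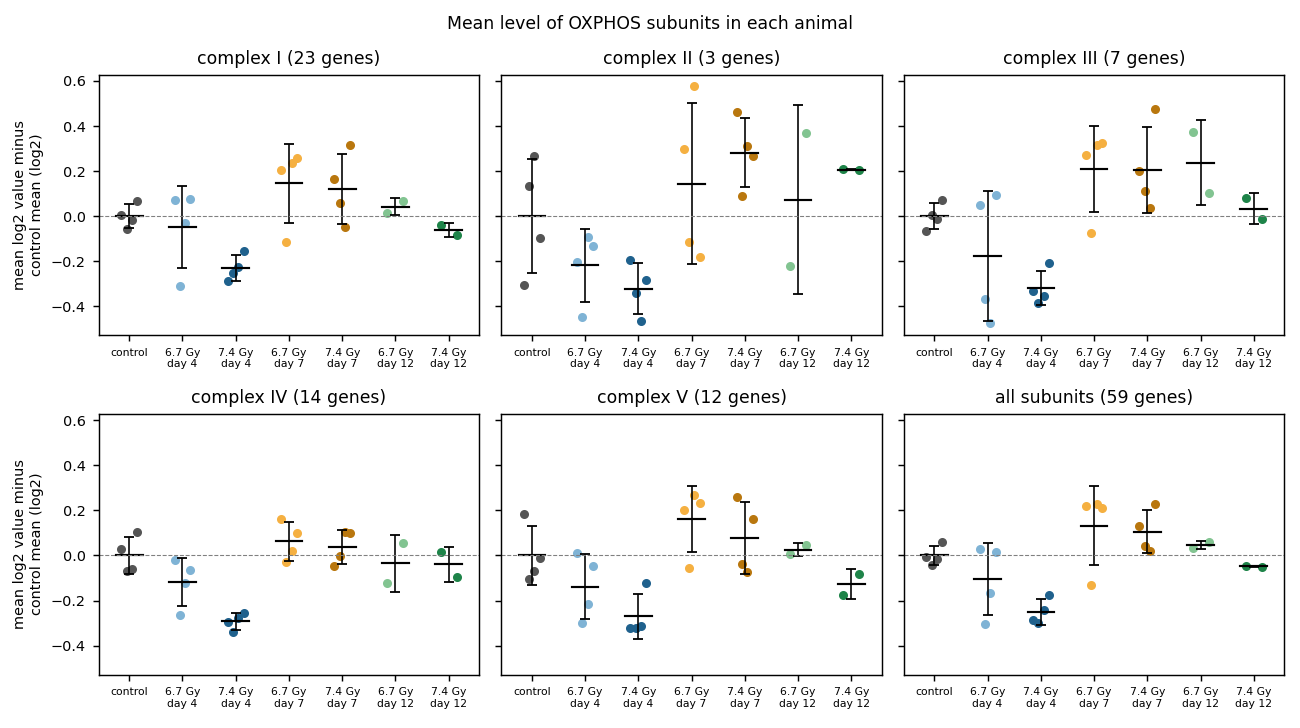
Each panel plots, for every animal, the mean log2 value over the tested subunits of a complex minus the control mean, by group; points are animals, thick bars group means and whiskers 1 SD. In complexes I, III, IV and V the 4 animals of 7.4 Gy day 4 lay below all controls, whereas those of 6.7 Gy day 4 were spread across and below the control range. A missing spot changes which genes enter the mean of an animal, which matters most in complex II with its few genes.

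The drop at 7.4 Gy was seen in each complex. The complex means relative to control were -0.23 in complex I, -0.32 in complex II, -0.32 in complex III, -0.29 in complex IV and -0.27 in complex V. Each mean takes in the genes with a usable spot on an array, so a missing spot shifts it. In complex II the brightest gene, SDHB, had a usable spot in 3 of the 4 animals, which lowers that mean. The changes of SDHB, SDHC and SDHD themselves were -0.34, -0.12 and -0.18, so the size of the complex II value is uncertain. Animals of the irradiated group did not overlap the controls in complexes I, III, IV and V, but in complex II the controls themselves ranged from -0.31 to 0.27 around their mean. At 6.7 Gy the corresponding values were -0.05, -0.22, -0.18, -0.12 and -0.14, with overlap of the groups in every complex.

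At the level of single genes, 14 of the 66 tested members (21.2%) fell on day 4 after 7.4 Gy and none rose, where over all probes tested 11.6% were called lower and 8.36% higher. The median change over the members was -0.19, against -0.08 over all probes, and 53 of the 59 tested subunits had a negative value. In each of the 14 genes the irradiated animals did not overlap the controls. Calling itself favours such genes, and the share without overlap over all probes was not counted. The changes were modest: no member reached 2-fold, whereas 7.04% of all probes were called with at least a 2-fold change in this comparison. The 14 genes were COX7AH, COX4I1, COX7C, COX8A, COX6B1 and COX5A of complex IV, UQCR and UQCRC1 of complex III, NDUFA1, NDUFA2, NDUFB7 and NDUFB11 of complex I, and ATP5G2 and ATP5E of complex V, with changes from -0.94 to -0.40. Some of these genes are named here because they were called, after their values were seen.

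With array position as a block in the fit, 2 of the 14 were called (COX7C and UQCRC1), and with position and scan day as blocks 0 of 14, although all 14 kept a negative value in both fits. The 7.4 Gy day 4 animals share no position with the controls, so such a fit links them through the 6.7 Gy day 4 animals alone. When arrays were scaled to the added spike-in RNA in place of the 75th percentile, all probes moved up by a mean of 0.27 in this comparison, the median over the members became 0.08, and 3 members were called lower (COX7AH, UQCR, UQCRC1) and 4 higher (NDUFAF2, NDUFB4, NDUFA4, NDUFA4L2), while all 14 genes kept a negative value. The fall is thus relative to the other transcripts on the array.

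Complex IV, cytochrome c oxidase, held the largest share of the called genes, 6 of 14. COX7AH, an isoform of subunit 7A known from heart and skeletal muscle, had log2 values of 4.41, 4.50, 4.92 and 4.41 in the controls, 3.91, 3.77, 3.78 and 3.75 at 6.7 Gy day 4, and 3.42, 3.67, 3.75 and 3.63 at 7.4 Gy day 4. Every day 4 animal was below every control, and the change was -0.76 ± 0.18 (SE, adjusted p = 0.0129, limma) at 6.7 Gy and -0.94 ± 0.18 (SE, adjusted p = 0.00129, limma) at 7.4 Gy, or 1.69-fold and 1.92-fold lower. Of 5 smooth muscle markers, 0 were called at 7.4 Gy day 4 by limma, 0 of them at an unadjusted p under 0.05. Their mean log2 value was 4.70 ± 0.26 in the controls, 4.20 ± 0.93 at 6.7 Gy day 4 and 4.86 ± 0.14 at 7.4 Gy day 4 (SD, n = 4 each). The 6.7 Gy animals ranged from 3.13 to 5.22. The part of muscle content in the COX7AH values was not tested.

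COX8A, a small membrane subunit of complex IV, had log2 values of 4.73, 4.75, 4.44 and 4.56 in the controls and 3.57, 4.04, 3.89 and 4.10 at 7.4 Gy day 4. The groups were separate, with a change of -0.72 ± 0.14 (SE, adjusted p = 0.00125, limma), 1.65-fold lower. At 6.7 Gy the values of 4.54, 4.22, 4.38 and 4.49 overlapped the controls.

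COX4I1, the usual isoform of the nuclear-encoded subunit 4, had control values of 8.03, 7.31, 7.20 and 7.76. It fell by 0.77 on the log2 scale at 7.4 Gy (SE 0.19, adjusted p = 0.00816, limma), with irradiated values of 6.54, 7.02, 6.74 and 6.93, all below the lowest control. COX6B1, a subunit of the intermembrane side, fell by 0.65 (SE 0.17, adjusted p = 0.0107, limma).

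NDUFA4, a complex IV subunit, had log2 values of 4.01, 3.91, 4.00 and 3.90 in the controls, 4.13, 4.15, 4.26 and 4.23 at 6.7 Gy day 4, and 4.58, 4.07, 4.43 and 4.35 at 7.4 Gy day 4. All 8 irradiated animals of day 4 were above all 4 controls, but the changes of 0.24 ± 0.14 and 0.40 ± 0.14 (SE) had adjusted p-values of 0.308 and 0.0513 in limma and were not called. The methods' two-sample test with adjustment called it at 6.7 Gy (adjusted p = 0.0477). Its dimmer probe had 0.27 and 0.57 and was called higher at 7.4 Gy (adjusted p = 0.259 and 0.0121, limma).

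Complex III showed 2 called genes of 7 at 7.4 Gy day 4, where 11.6% of all probes were called lower. Such a count is too small to set against that share. UQCRC1, a core protein of the bc1 complex, had the smallest adjusted p among the members. Its log2 values were 6.73, 6.62, 6.77 and 6.73 in the controls, 6.59, 6.20, 6.31 and 6.52 at 6.7 Gy day 4, and 6.01, 5.85, 5.997 and 6.15 at 7.4 Gy day 4. The change at 7.4 Gy was -0.71 ± 0.12 (SE, adjusted p = 0.000602, limma), 1.64-fold lower, and the 6.7 Gy animals lay between the controls and the 7.4 Gy animals.

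UQCR, a small accessory subunit of the same complex, was called at both doses, with changes of -0.43 ± 0.13 (SE, adjusted p = 0.0457, limma) and -0.71 ± 0.13 (SE, adjusted p = 0.0012, limma). UQCRQ, which binds next to ubiquinone in this complex, was at the other end of complex III, with changes of 0.07 and 0.05 that were not called.

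In complex I, 4 of 23 tested genes fell at 7.4 Gy day 4, all of them accessory subunits. Over all probes 11.6% were called lower, so this count does not stand out. NDUFA1, needed for assembly of the membrane arm, had log2 values of 5.85, 5.32, 5.54 and 4.99 in the controls and 4.75, 4.74 and 4.95 in the 3 animals of 7.4 Gy day 4 with a usable spot. The highest irradiated value was just under the lowest control, and the change was -0.61 ± 0.18 (SE, adjusted p = 0.0271, limma). NDUFB7 had control values of 4.04, 3.85, 3.94 and 3.98 and irradiated values of 3.19, 3.29, 3.48 and 3.58, a clear gap, and fell by 0.57 (SE 0.12, adjusted p = 0.00299, limma).

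NDUFB4 had the highest mean change of complex I on day 4, with changes of 0.14 and 0.31 that were not called (adjusted p = 0.628 and 0.175, limma).

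Complex V had 2 called genes of 12 at 7.4 Gy day 4, where 11.6% of all probes were called lower, so this count does not stand out. ATP5E, the epsilon subunit of the catalytic head, had control values of 6.43, 6.38, 6.35 and 6.39 and 7.4 Gy day 4 values of 5.83, 5.94, 6.04 and 6.14. The controls were tightly grouped, and the change of -0.40 ± 0.11 (SE, adjusted p = 0.0187, limma) left no overlap. ATP5G2, a gene for the c subunit of the rotor ring, fell by 0.49 (SE 0.17, adjusted p = 0.0485, limma), while the c subunit genes ATP5G1 and ATP5G3 had values of -0.31 and -0.20 and were not called. ATP5D, with the lowest mean change of this complex, had -0.40 and -0.46 but controls spread from 7.33 to 8.14, and ATP5A1, the alpha subunit, had the highest, 0.26 and -0.02; neither was called.

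Complex II, succinate dehydrogenase, is the only complex built wholly from nuclear genes. By the brightest probe, none of its 3 measured genes, SDHB, SDHC and SDHD, was called at either dose on day 4 by limma, and 0 of 3 had an unadjusted p under 0.05. SDHB, the iron-sulfur subunit, had the lowest mean change, with -0.29 and -0.34, and SDHD, a membrane anchor, the highest, with -0.07 and -0.18. The dimmer probe of SDHD had -0.20 and -0.54 and was called lower at 7.4 Gy (adjusted p = 0.0113, limma). SDHA was not among the symbols and was not analysed here.

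**Figure D2:**
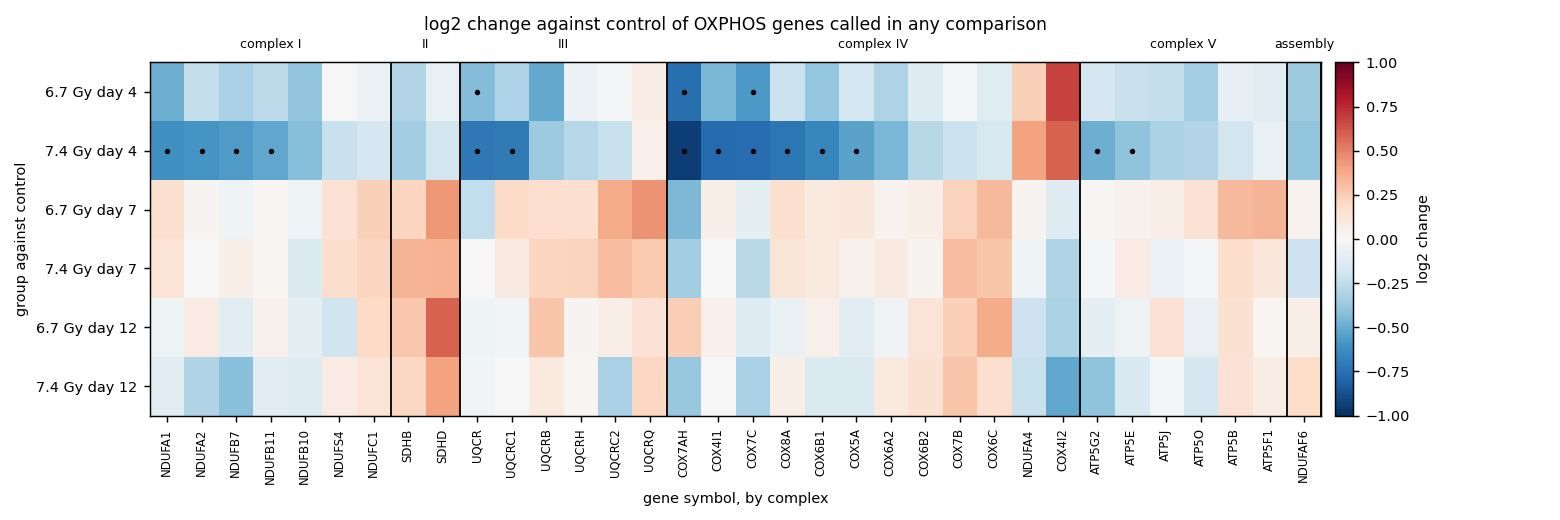
The colour of each cell is the log2 change of a gene against control (blue lower, red higher, scale limited to -1 and 1), with groups in rows and the 34 members called in at least 1 comparison in columns, chosen for that and ordered within complex by the change at 7.4 Gy day 4; a dot marks an adjusted p under 0.05. Dots appear in the day 4 rows alone, 3 at 6.7 Gy and 14 at 7.4 Gy.

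At 6.7 Gy, day 4, 3 of 66 members (4.55%) fell and none rose, against 5.2% called lower and 4.52% called higher over all probes, so the share was near the background. The 3 genes, COX7AH, COX7C and UQCR, were also among the 14 called at 7.4 Gy. No member was called with a 2-fold change, while 3.61% of all probes were. The 14 genes called at 7.4 Gy all had negative values at 6.7 Gy, from -0.76 to -0.17; both doses share the controls. The count of 3 fell to 1 without control replicate 1, 6.7 Gy day 4 replicate 1 or 6.7 Gy day 4 replicate 2, and ranged from 1 to 4 over the animals of these groups left out in turn.

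The doses were also compared directly. On day 4, 58 of 66 members were lower after 7.4 than after 6.7 Gy, with a median difference of -0.15, against -0.03 over all probes, but limma called 0 members, 7 had an unadjusted p under 0.05 and the methods' two-sample test with Benjamini-Hochberg adjustment called 0 as well. Over all probes 0% were called by limma. On day 7 it called 0 members, 0 of them at an unadjusted p under 0.05, and 0% of all probes. The larger count at 7.4 Gy on day 4 is therefore not shown to differ from that at 6.7 Gy.

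Compared with control, no member was called on day 7 or day 12. Over all probes 0.387% were called at 6.7 Gy day 7, 0.523% at 7.4 Gy day 7, 0.0183% at 6.7 Gy day 12 and 0.0262% at 7.4 Gy day 12. At an unadjusted p under 0.05 the members numbered 9, 1, 2 and 2 in limma, and the methods' two-sample test with adjustment called 0 in each. The signs were mostly positive on day 7, with 56 of 66 members above control at 6.7 Gy and 50 of 66 at 7.4 Gy. The medians were 0.14 and 0.09. Signs and medians were not tested or set beside those of all probes, and day 7 cannot be told apart from array position. For the 14 genes that had fallen on day 4, the values on day 7 lay between -0.45 and 0.19.

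The difference between days 4 and 7 was tested on the mean of both doses, 8 animals against 8. In this comparison 30 members (45.5%) were higher on day 7 and 2 (3.03%) lower, where 14.6% of all probes were called higher and 11.4% lower. None was called with a 2-fold change, against 4.44% of all probes. The median over the members was 0.29, against 0.06 over all probes, and 55 of 59 subunits were positive. The called genes that were higher comprised 6 of 7 in complex III, 9 of 14 in complex IV, 6 of 12 in complex V, 7 of 23 in complex I and 2 of 3 in complex II. Leaving out single animals of these groups gave 22 to 35 called members, and under spike-in scaling 14 were called higher and 3 lower. Within slides the mean over all subunits was higher on day 7 on each of the 6 slides, by 0.03 to 0.51, and with scan day as a block 29 members were called; array position cannot be told apart from day here.

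The 6 smallest adjusted p-values were those of UQCRC1, COX8A, NDUFA1, NDUFB7, SDHD and COX6B1. UQCRC1 had day 7 values of 7.03, 6.63, 7.04 and 6.91 after 6.7 Gy and 6.89, 6.75, 6.66 and 6.91 after 7.4 Gy. Each of the 8 values was above all day 4 values, and the difference was 0.65 ± 0.09 (SE, adjusted p = 5.17e-05, limma), 1.57-fold. COX8A was likewise separate between the days, by 0.61 ± 0.10 (SE, adjusted p = 0.000225, limma). NDUFA1 was higher on day 7 by 0.69 ± 0.13 (SE, adjusted p = 0.00081, limma), 1.62-fold, the highest positive difference among the members.

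SDHD had log2 values by its brightest probe of 2.79, 3.25, 3.16 and 2.69 in the controls, and on day 4 it stayed within that range except for 1 animal at 2.64. On day 7 the values were 3.39, 3.10, 3.70 and 3.45 after 6.7 Gy and 3.29, 3.32, 3.28 and 3.40 after 7.4 Gy, and on day 12 3.61, 3.52, 3.32 and 3.44. The day 7 animals were above all day 4 animals, with a difference of 0.52 ± 0.10 (SE, adjusted p = 0.000909, limma), and all but 1 of them, at 3.10, were above the highest control. Against control it was not called on day 7 (adjusted p = 0.228 and 0.338, limma) or day 12 (adjusted p = 0.41 and 0.66, limma). Its dimmer probe was higher on day 7 than on day 4 by 0.38 (adjusted p = 0.00834, limma), with values of 0.13 and -0.10 against control.

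**Figure D3:**
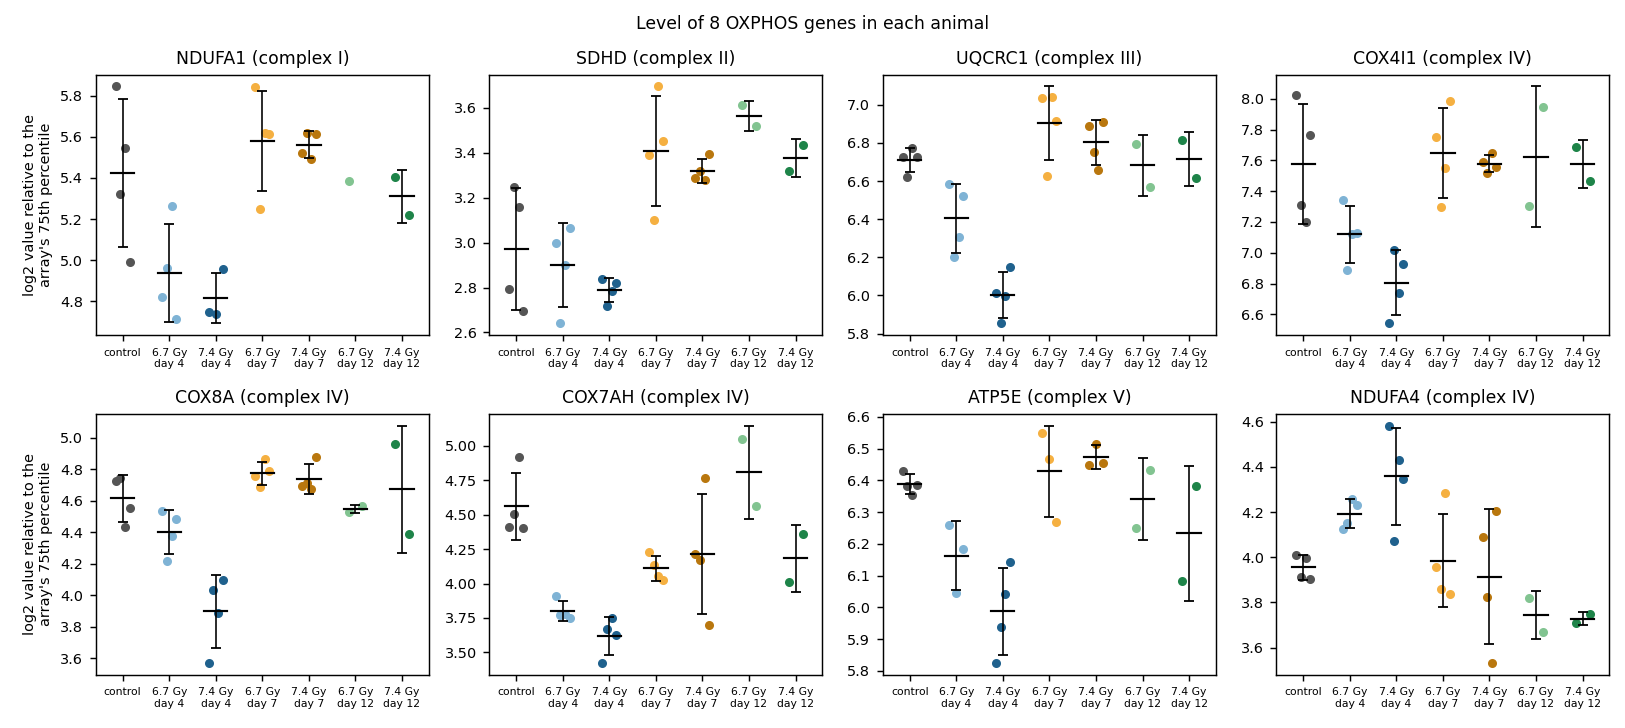
Each panel plots the log2 value of a gene in every animal by group, with the group mean (thick bar) and 1 SD (whiskers); the vertical scales differ between panels and do not start at 0. UQCRC1, COX8A and ATP5E were low at 7.4 Gy day 4 and near control from day 7. SDHD was above all day 4 animals on days 7 and 12 and was not called against control. COX7AH was below all controls in 7 of the 8 animals on day 7 but was not called against control on that day. NDUFA4 was highest on day 4.

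On day 12 against day 4, with 4 animals against 8, 16 members (24.2%) were higher and 2 (3.03%) lower, against 14.6% and 9.92% of all probes, and 16 of the 18 had also been called between days 4 and 7, a comparison that shares the day 4 animals. COX4I2 alone among the members passed 2-fold in the fit, while 6.51% of all probes did. The median over the members was 0.185, against 0.11 over all probes. The count fell to 7 without 6.7 Gy day 12 replicate 2, 8 without either 7.4 Gy day 12 animal, 11 without 6.7 Gy day 12 replicate 1, 10 without 6.7 Gy day 4 replicate 2 and 11 without 7.4 Gy day 4 replicate 1. SDHD was higher by 0.63 ± 0.12 (SE, adjusted p = 0.00114, limma) and COX7AH by 0.78 ± 0.15 (SE, adjusted p = 0.00135, limma), 1.72-fold; in both genes the day 12 and day 4 animals did not overlap. NDUFAF6, an assembly factor of complex I, was higher by 0.50 ± 0.13 (SE, adjusted p = 0.0105, limma), the single one of the 5 assembly factors called by its brightest probe.

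The 2 members that were lower at later days were the same in both comparisons, NDUFA4 and COX4I2. NDUFA4 was lower on day 7 than on day 4 by a log2 difference of -0.33 ± 0.10 (SE, adjusted p = 0.0221, limma) and on day 12 by -0.54 ± 0.12 (SE, adjusted p = 0.00397, limma), where its 4 values of 3.82, 3.67, 3.71 and 3.75 lay below all 8 day 4 values. COX4I2, an isoform of subunit 4 known from lung and from hypoxic cells, had a difference of -0.84 ± 0.29 on day 7 (SE, adjusted p = 0.0368, limma), with overlap and with most of these arrays not well above background, so that its size is uncertain. On day 12 none of the 4 arrays showed it well above background. The measured difference from day 4 was -1.05 ± 0.35 (SE, adjusted p = 0.0363, limma), but its size and direction are uncertain. Day 4 was 1.34-fold higher with day 12 values raised to at least the lowest value well above background on each array. This is no firm lower bound, since the day 4 mean includes arrays not well above background. With normexp background correction the day 12 difference turned to 0.072. The COX4I2 signal was dim throughout, above background on 1 of 4 control arrays, 2 of 4 at each dose on day 4 and 1 of 4 at each dose on day 7.

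Isoform pairs were compared within arrays. The difference between COX4I2 and COX4I1 was 1.13 higher than in controls at 6.7 Gy day 4 and 1.36 higher at 7.4 Gy day 4, in 4 of 4 animals each, but the groups overlapped (exact two-sided permutation p = 0.114 in both, n = 4 against 4, smallest possible p = 0.0286; adjusted over the 6 comparisons, p = 0.343). In each of these groups 2 of 4 arrays showed COX4I2 above background, and 1 of 4 did among the controls, so these differences rest on a dim signal. For COX6B2 against COX6B1 the shifts were 0.26 and 0.38, and for NDUFA4L2 against NDUFA4 they were 0.26 and 0.07, and no exact test passed. COX6A2, a muscle isoform, had changes of -0.31 and -0.46 on day 4 that were not called, and was higher on day 7 than on day 4 by 0.45 ± 0.14 (SE, adjusted p = 0.0277, limma).

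Across the 24 arrays, 30 members followed the mean of all subunits with a Pearson r above 0.7, with UQCRH (r = 0.92), UQCRC1 (r = 0.91) and COX5A (r = 0.91) at the head, and each member is itself part of that mean. The 8 members with a negative r included COX4I2 (r = -0.50), NDUFA4 (r = -0.35) and the assembly factors NDUFAF5, NDUFAF2 and NDUFAF3 (r = -0.23, -0.23 and -0.19). Among 14652 other named genes the 5 most like the subunit mean were LOC707227 (r = 0.91), SUCLG1 (r = 0.90), which encodes a subunit of succinyl-CoA ligase, APOOL (r = 0.87), a protein of mitochondrial cristae, FOXA1 (r = 0.87), an epithelial transcription factor, and DGAT1 (r = 0.86), an enzyme of triglyceride synthesis. These correlations describe arrays that share groups and scaling.

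Most subunits encoded by mitochondrial DNA were lower at 7.4 Gy day 4 as well. Of 12 symbols for such genes, in which MT-ND1 and ND1 name the same gene, 3 were lower at 6.7 Gy day 4 and 10 at 7.4 Gy day 4, and none was higher. Over all probes 5.2% and 11.6% were called lower. Calls with array position as a block were not counted for this list. The median change was -0.40 and -0.69. The genes lower at both doses were ND4L, ND5 and COX1, and COX1, the catalytic subunit of complex IV, had the largest fall, -0.90 and -1.27 (adjusted p = 0.0263 and 0.00144, limma). ND6, the one gene read from the opposite strand, was not called, at -0.40 and 0.91. Counted as 11 genes by brightest probe, the mean relative to control was -0.46 ± 0.10 at 6.7 Gy day 4, -0.65 ± 0.12 at 7.4 Gy day 4, -0.28 ± 0.13 and -0.22 ± 0.23 on day 7 (SD, n = 4 each), and -0.33 ± 0.02 and -0.60 ± 0.05 on day 12 (SD, n = 2 each). That mean left out the dimmer MT-ND1 probe, which had changes of 2.18 and 1.08 that were not called (adjusted p = 0.154 and 0.456, limma) and a control SD of 3.30. Over all 12 symbols the corresponding means were -0.24 and -0.50 at the earliest time, -0.07 and -0.03 after 7 days and -0.14 and -0.39 after 12, with a control SD of 0.39. Under spike-in scaling the median at 7.4 Gy was -0.42 and 4 of 12 were called lower.

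Other genes of the pathway were taken from lists. Among 9 electron carriers and their partners, CYC1 (cytochrome c1 of complex III), ETFB and ETFDH (electron transfer from fatty acid oxidation to ubiquinone) were lower at 7.4 Gy day 4, with changes of -0.74, -0.78 and -1.21. CYC1 and ETFDH were lower at 6.7 Gy as well, together with CYCS, cytochrome c itself, at -0.93. In pyruvate oxidation and the tricarboxylic acid cycle 1 of 13 was lower at 6.7 Gy and 3 at 7.4 Gy, namely OGDH (-0.53), SUCLG1 (-0.62) and SUCLG2 (-1.56), and under spike-in scaling the median of this list turned from -0.21 to 0.07. Of the 19 further assembly factors, 0 were lower at 7.4 Gy day 4 and 2 were higher, ACAD9 (0.82) and COX20 (0.63). Over all probes 11.6% were called lower and 8.36% higher at 7.4 Gy day 4, and 5.2% and 4.52% at 6.7 Gy day 4. In lists this short, counts of 1 or 2 genes do not stand out against those shares.

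On day 4, relative to the other transcripts on the array, the glycolysis list stood opposite to the subunits. Of 16 genes, 5 were higher at 6.7 Gy day 4 and 7 at 7.4 Gy day 4, with 0 and 1 lower (HK1) and medians of 0.59 and 0.62; under spike-in scaling 7 and 9 were higher. The genes higher at 7.4 Gy were PFKM, PGK1, PGAM1, ENO1, PKM, LDHB and PDK4. The list includes PDK4, the kinase that inactivates pyruvate dehydrogenase. PDK4 had the largest change, 1.30 at 6.7 Gy and 1.91 at 7.4 Gy (adjusted p = 0.0141 and 0.000421, limma). On day 7 the glycolysis mean was above control by 0.38 ± 0.13 after 6.7 Gy and 0.29 ± 0.35 after 7.4 Gy (SD, n = 4 each). The subunit mean was then above control as well, by 0.13 and 0.11, so the lists were not opposite. These day 7 means were not tested. Among 19 genes of mitochondrial carriers, protein import and membrane structure, TOMM70A and TIMM23 were higher and SLC25A5 lower at 7.4 Gy day 4. Such counts do not stand out against the 8.36% of all probes called higher and 11.6% called lower. Among 11 regulators of mitochondrial biogenesis, PPARGC1A (-1.35) and PPARA (-0.76) were lower at 7.4 Gy day 4, while TFAM, the packaging and transcription factor of mitochondrial DNA, had 0.48 and was not called. Under spike-in scaling at 7.4 Gy, 1 electron carrier gene was lower and 1 higher, 1 cycle gene was lower and 1 higher, 1 regulator was lower and 4 were higher, and 7 of the 19 carrier and import genes were higher with 0 lower.

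**Figure D4:**
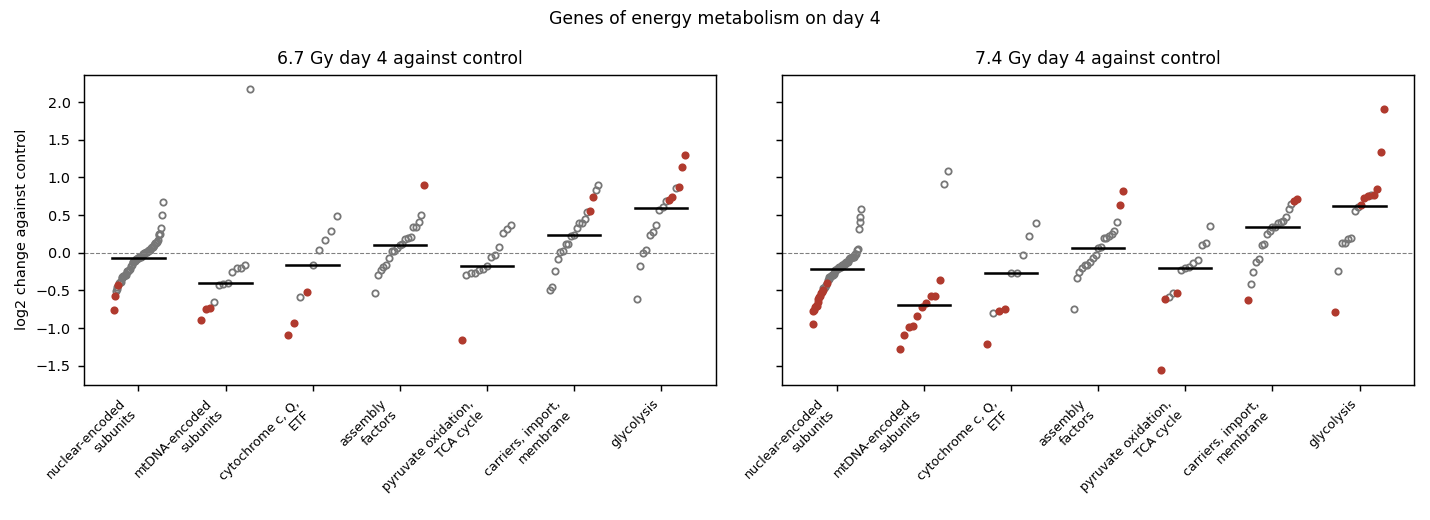
Each point is the log2 change of a gene against control on day 4 (left, 6.7 Gy; right, 7.4 Gy), by list; filled points have an adjusted p under 0.05 and bars are medians over the list. At 7.4 Gy the medians were -0.22 for the 59 nuclear-encoded subunits, -0.69 for the mtDNA-encoded symbols and 0.62 for glycolysis.

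Cell type markers moved beside these values. The mean of 10 absorptive colonocyte markers relative to control was -2.11 ± 0.62 at 6.7 Gy day 4 and -3.22 ± 1.24 at 7.4 Gy day 4 (SD, n = 4 each), and -0.38 ± 0.15 and -1.03 ± 0.96 on day 7. Markers of epithelium in general were lower in 4 of 6 genes at each dose on day 4. Of 7 fibroblast markers 6 were higher at 7.4 Gy day 4, with a median of 0.95. Of 3 red blood cell markers 2 were lower at each dose on day 4, with medians of -2.72 and -1.85. Of 3 neutrophil markers 0 were called at 6.7 Gy by limma, although 3 had an unadjusted p under 0.05, and 2 were higher and 1 lower at 7.4 Gy, with a median of 2.23. The 4 animals ranged from -4.35 to -1.78 for the colonocyte mean at 7.4 Gy day 4, and all 10 of these markers were above background on 19 or more arrays. On day 7 against day 4, 9 of 10 colonocyte markers were higher and 1 lower, 3 of 4 goblet cell markers were higher, and 4 of 5 T lymphocyte and 3 of 4 endothelial markers were lower. At 7.4 Gy day 7 the 4 animals ranged from -2.20 to 0.04 for the colonocyte mean and from 0.02 to 0.23 for the subunit mean, relative to control. The part of these shifts in the OXPHOS values was not tested.

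**Figure D5:**
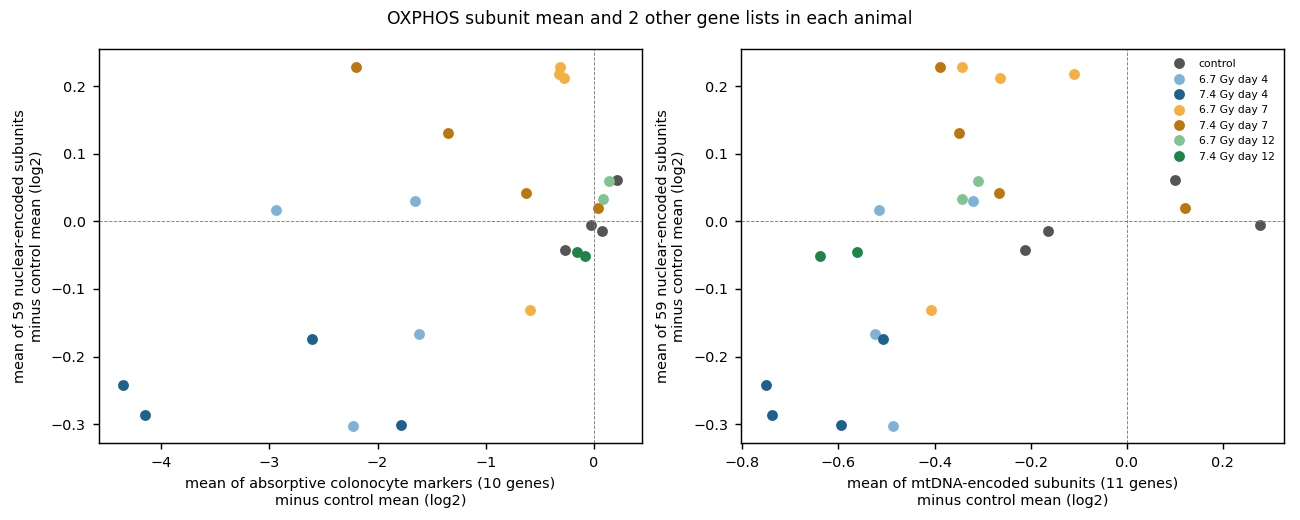
Each point is an animal, with the mean of the 59 nuclear-encoded subunits on the vertical axis and, on the horizontal axes, the mean of 10 absorptive colonocyte markers (left) or 11 genes of mitochondrial DNA (right), all minus the control mean in log2 units. The 4 animals of 7.4 Gy day 4 were low on all axes, while some day 7 animals combined a subunit mean above control with colonocyte markers below it.

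On day 4 and between days 4 and 7, different probes of a gene mostly moved the same way. Of 42 members with several tested probes, all probes had the same sign in 34 at 7.4 Gy day 4 and in 39 between days 4 and 7, and in no gene were probes opposed past an adjusted p of 0.05. At 7.4 Gy day 4 a dimmer probe was called where the brightest was not in 4 members, lower in SDHD, UQCRB and UQCRC2 and higher in NDUFA4. With the mean of all probes of a gene in place of the brightest, 16 members were called at 7.4 Gy day 4, 11 of them among the 14. Between days 4 and 7, 28 were called, 26 of them among the 32.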

How the data were processed

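Colon RNA of 24 macaques was hybridised to 1-colour (Cy3) Agilent arrays. The deposited intensity values are, per the file headers, background-subtracted and detrended signals from Feature Extraction 11.0.1.1, with median spot and background intensities beside them. The authors' normalized table, on a log2 scale with genes centred, matched these signals within 0.05 log2 for 100% of probes after array and probe constants, and served as an alternative.

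Each signal was taken as log2 minus the 75th percentile of its array. Outlier spots were left out, and a probe was tested if well above background on 2 or more arrays. Group means over all 24 arrays were fitted with limma 3.58.1 in R 4.3.3 (lmFit, contrasts.fit, eBayes), with p-values adjusted by the Benjamini-Hochberg method over all probes. The scripts were tested on simulated data. The members and lists were chosen with earlier results of these data known. Genes described in full were, by rule, the members with the highest and lowest mean day 4 change per complex, up to 6 called members per later comparison by p, any called 2-fold on day 4, and the isoform pairs; other names were added after their values were seen.

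Array symbols were used, and 64 of the 67 were found in RefSeq. The number of arrays limits the precision, since no depth exists for arrays. Replicate numbers only name animals, so p-values measure the spread between animals. Alternatives covered scaling, background correction, the filter, the test, the samples fitted, slide, position, scan day and replicate number as blocks, and each array left out. No sequences or coordinates were used here. The values of 1 member are not reported here by name.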

Additional observations from a re-analysis of the deposited data

Results flagged for a closer look

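Among 121 group sets examined, 7 held a sample whose gap to its nearest neighbour took up more than 0.829 of the range of the group, a share that chance gives in about 1 in 20 groups. The count of 7 is thus near what chance gives. Most of them, 4 of 7, concerned 6.7 Gy day 7 replicate 2, whose mean log2 value over all subunits was 4.07, against 4.42 to 4.43 in the other animals of that group. The same animal was low in the complex I mean, at 4.17 against 4.49 to 4.54, in the complex III mean, at 4.52 against 4.87 to 4.92, and in COX6B1, at 6.40 against 6.76 to 6.82. These values are parts of the mean over all subunits, so the 4 are not separate observations. Without this animal 35 members in place of 32 were called between days 4 and 7.

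In 7.4 Gy day 4 replicate 4 the complex V mean was 5.82, against 5.62 to 5.63 in the other animals, and it was still below all controls. COX4I2 in 7.4 Gy day 4 replicate 1 was at -4.27, against -5.42 to -5.29. NDUFB4 in 7.4 Gy day 7 replicate 3 was at 4.35, against 4.75 to 4.82.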

How the results depend on the processing

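No member was called against control on days 7 and 12, or between doses, under any alternative that could be run. At 6.7 Gy day 4 the count of 3 became 1 with median scaling, no filter on dim probes, only the groups compared, slide, array position, position with scan day, the mean of all probes of a gene, or the replicate number as a block (replicate block, 1), and ranged from 1 to 4 with single animals left out. At 7.4 Gy day 4 the count of 14 became 7 under spike-in scaling, 9 with only the groups compared, 2 with position and 0 with position and scan day as blocks, and ranged from 10 to 15 with single animals left out. Between days 4 and 7 the count of 32 became 17 under spike-in scaling and ranged from 22 to 35. Between days 4 and 12 the count of 18 became 10 with median scaling or only the groups compared. It ranged from 7 to 19 with single animals of these 2 days left out, and was 21 without control replicate 1. The causes were not tested. Fits with position as a block could not be made for days 7 and 12 and were not run.

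Under spike-in scaling the median over all members was 0.147 and 0.0772 at 6.7 and 7.4 Gy on day 4, 0.257 at 7.4 Gy day 7, and 0.286 and 0.271 on day 12. With the authors' table the median was -0.0333 at 6.7 Gy day 12 and 0.13 between days 4 and 12. With normexp correction COX4I2 between days 4 and 12 turned to 0.072, and NDUFA4L2 against NDUFA4 turned to -0.187 and -0.438; the latter ranged from -0.111 to 0.285 at 7.4 Gy with single animals left out, with -0.0679, -0.111 and -0.11 as reversed values.

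Animals with the same replicate number did not deviate together (mean correlations from -0.0193 to 0.0227, lowest pair -0.229), so the numbers share no pairing; with the replicate block 13, 30 and 18 members were called at 7.4 Gy day 4, between days 4 and 7 and between days 4 and 12. Dim signal limits COX4I2 and NDUFA5.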

Other observations

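Among the 5 assembly factors of complex I that share the prefix, none was called on day 4 by the brightest probe. NDUFAF2, NDUFAF3, NDUFAF4 and NDUFAF5 had positive values at both doses, from 0.11 to 0.49, and NDUFAF6 had -0.36 and -0.39, with 2 of 5 at an unadjusted p under 0.05 at 7.4 Gy in limma. A dimmer probe of NDUFAF5 had the opposite sign, -0.25 and -0.52, and was not called (adjusted p = 0.663 and 0.25, limma). Under names updated by accession, ATPIF1, the inhibitor of the ATP synthase, and USMG5, an accessory subunit of it, would also be members. ATPIF1 had changes of -0.23 and -0.20 on day 4 and was higher on day 7 than on day 4 by 0.46. USMG5 had 0.24 and -0.02 on day 4.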
